A study of Drosophila melanogaster with 25 samples.

Results

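Photodynamic exposure (PDE) in female fly brains was described from 12 RNA libraries of Drosophila melanogaster, out of 25 in the series. They were taken by their labelled sex and treatment: 5 libraries came from female controls and 7 from females after long-term PDE, a treatment that the sample labels call photodynamic therapy. The other 13 libraries came from males. The labels give brain as the tissue and total RNA as the molecule. The photosensitising compound, the light, the length of the exposure, the strain, the age of the flies and the number of brains in a library are given neither in the labels nor in the design text, so the groups are known only as exposed and not exposed. Levels are in RPKM, that is, reads per kilobase of a gene and per M reads of its library. Of 16060 genes in the table, the 7741 with at least 1 RPKM in at least 5 of the 12 libraries were tested. No source says that replicates came from separate flies, so the p-values measure only how far these libraries spread, which may be technical.

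A photodynamic exposure combines light with a compound that absorbs it and passes the energy on to oxygen, so that singlet oxygen and other reactive oxygen species form where compound and light meet. Cells answer such species with antioxidant and detoxifying enzymes, repair of DNA and proteins, and stress signalling through kinases such as JNK. In flies, secreted peptides made downstream of JAK-STAT, Toll and IMD signalling also mark stress, injury and infection. Neurons hold further genes that respond to activity, among them Arc1, whose protein derives from a retrotransposon Gag and assembles into capsids that carry mRNA.

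Library totals, recovered from the steps between low RPKM values, ran from 8.88 to 26.1 M reads in controls and from 21.58 to 48.3 M reads after PDE. The lowest was control 3 and the highest PDE 3. The dosage compensation RNA roX1 was at 9.58 to 36.8 RPKM (median 22.7) in the female controls and at 11.4 to 17.3 (median 13.7) after PDE, against 1830 to 2160 RPKM in the male libraries, so every library matched its labelled sex. Of 10 library measures it was the only 1 with an unadjusted p under 0.05 between the female groups (exact two-sided permutation p = 0.0177, adjusted over the 10 measures p = 0.177). Among neuronal markers nSyb, a vesicle fusion protein of synapses, was at 271 to 304 RPKM, and the glial marker repo at 23.2 to 35.1 RPKM. The neuronal marker elav was at no more than 0.0466 RPKM and the glial marker moody was listed at 0. In the annotation 98.6% of the bases of elav and 100% of those of moody also belong to other genes. Of 1053 protein-coding genes that share every base with another gene, 91.3% were at 0 in all 25 libraries, against 3.7% of the 7730 that share none. A 0 in the table therefore does not show that such a gene was silent.

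Other tissues were present in varying amounts. The summed RPKM of 14 photoreceptor markers was 9387 in control 4, and 104 to 446 in the other controls. It was 1973 in PDE 2 and 1792 in PDE 3, and 98.2 to 326 in the other PDE libraries. The sum of 8 fat body markers, mostly yolk proteins, was 5598 in control 2 and 2281 in PDE 2, against 98.6 to 1013 in the other 10 libraries. An exact two-sided permutation test of the difference of means over the 792 splits gave p = 0.4848 and 0.322 (smallest possible p 0.0013). Each mean difference depended largely on 1 control, at 9387 and at 5598, so the test cannot show whether the other libraries differed. The control and PDE medians were 183 and 273 RPKM for photoreceptors, and 947 and 575 RPKM for fat body. The glial sum was 840 to 1035 in controls and 858 to 1231 after PDE (exact permutation p = 0.0947), and the neuronal sum 631 to 719 and 615 to 670 (exact permutation p = 0.1389). Haemocyte markers summed to 43.0 to 130 and 50.1 to 140 RPKM. Muscle markers summed to 18.2 RPKM in control 3, 6.78 in PDE 2 and 2.78 to 3.55 in the others. In bulk samples of this kind, fewer cells of a type and less RNA per cell cannot be told apart.

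**Figure D1:**
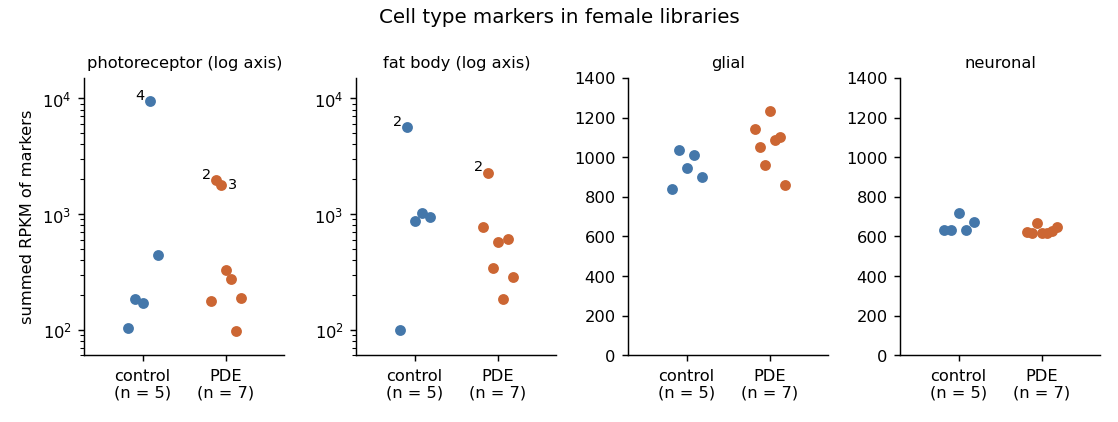
Summed RPKM of photoreceptor, fat body, glial and neuronal markers in the 5 control and 7 PDE libraries, 1 point a library; the 2 panels on the left have log axes. Numbers mark libraries that stand apart, control 4 at 9387 for photoreceptors and control 2 at 5598 for fat body, while the glial and neuronal sums overlap between the groups.

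Arc1, Xrp1 and CG9377 passed the test across all genes. Arc1 rose 3.06-fold in mean RPKM and Xrp1 1.66-fold, while CG9377 fell to 0.369 of its control mean. In each of them every PDE library lay beyond every control.

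Arc1 was at 30.6, 26.7, 21.0, 23.7 and 20.6 RPKM in controls 1 to 5, and after PDE its lowest, median and highest values were 55.7, 73.7 and 99.0. The lowest PDE library was thus well above the highest control. The means were 24.5 ± 4.19 and 75.0 ± 15.2 RPKM (SD, n = 5 and 7). On the log2(RPKM + 1) scale, which understates the change of low genes, Arc1 rose by 1.57 (SE 0.141, adjusted p = 0.00048, limma with Benjamini-Hochberg adjustment).

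Xrp1 encodes a stress-inducible bZIP transcription factor, known in flies from the response to DNA damage and from the removal of less fit cells in growing tissues. It was at 22.3, 17.4, 16.5, 18.2 and 19.2 RPKM in the controls and at 28.4, 31.0 and 32.9 (lowest, median and highest) after PDE. The PDE libraries lay close together, and the nearest control was control 1. The means were 18.7 ± 2.22 and 31.1 ± 1.61 RPKM, a log2 rise of 0.71 (SE 0.067, limma adjusted p = 0.00048).

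CG9377, a predicted serine protease homologue, was at 13.6, 12.1, 11.8, 12.96 and 20.5 RPKM in the controls and at 3.15, 5.07 and 8.10 (lowest, median and highest) after PDE. Control 5 stood above the other controls and PDE 2 above the other PDE libraries. The means were 14.2 ± 3.62 and 5.24 ± 1.55 RPKM, and the log2 value fell by 1.29 (SE 0.177, limma adjusted p = 0.0182). This call lay near the threshold and was lost when some single libraries were left out. Without control 4 or PDE 1, 3, 5 or 7 the limma adjusted p was 0.0661, 0.0597, 0.0584, 0.0624 and 0.063, at nearly the same change.

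**Figure D2:**
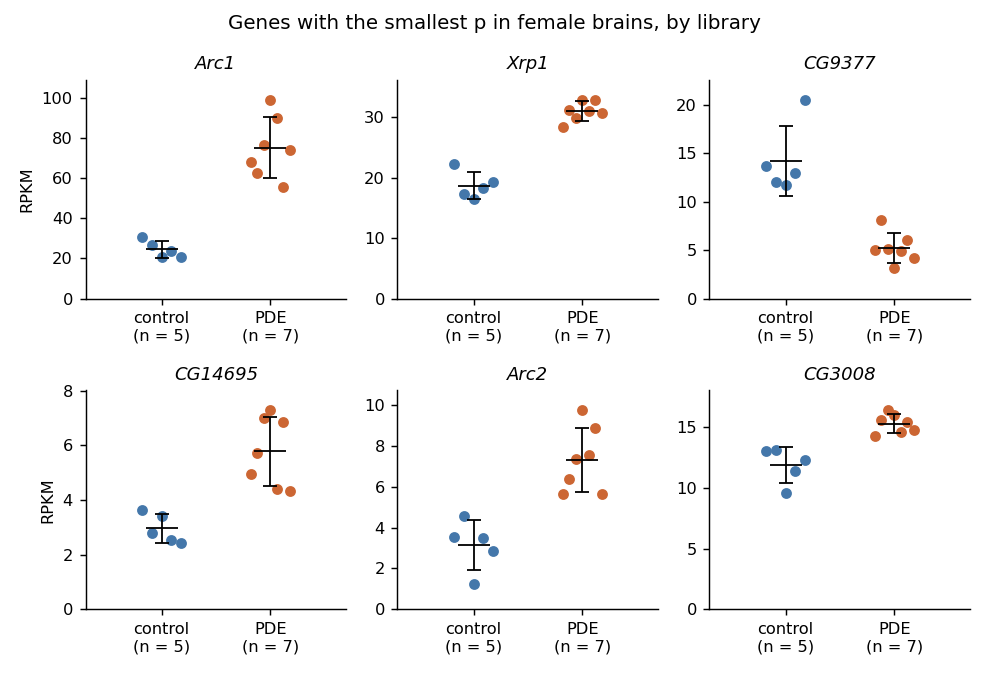
RPKM of Arc1, Xrp1, CG9377, CG14695, Arc2 and CG3008 in each control (n = 5) and PDE (n = 7) library; points are libraries, the horizontal mark is the mean and the bar 1 SD. In all 6 genes the groups do not overlap, with Arc1 between 20.6 and 30.6 in controls and between 55.7 and 99.0 after PDE.

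In dm6 coordinates, from the Ensembl annotation, Arc1 (FBgn0033926) lies on the minus strand of chromosome arm 2R from 14357927 to 14360297. Xrp1 (FBgn0261113) lies on the plus strand of 3R from 18914968 to 18926989, and CG9377 (FBgn0032507) on the minus strand of 2L from 13359901 to 13361565. All 3 are protein-coding, a value covers the whole gene, and no gene on the opposite strand overlaps them. The length that most RPKM values were divided by is the genomic span, introns included.

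The 3 genes are 0.0388% of those tested. Of these 2 were higher (0.0258%) and 1 was lower (0.0129%). Without adjustment 256 genes had a p under 0.05 (3.31%), of which 159 were higher (2.05%) and 97 lower (1.25%). The log2 change was positive in 56.9% of all genes tested and its median was 0.013, which is the background for every list below. Without control 3, the library with the lowest total, that median was −0.018, and without each other control it ran from 0.017 to 0.026. A gene with any control below 1 RPKM met the filter only with the help of PDE libraries, which can favour positive changes among low genes. TotC, TotM, asRNA:CR44095 and MtnE below are such genes.

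**Figure D3:**
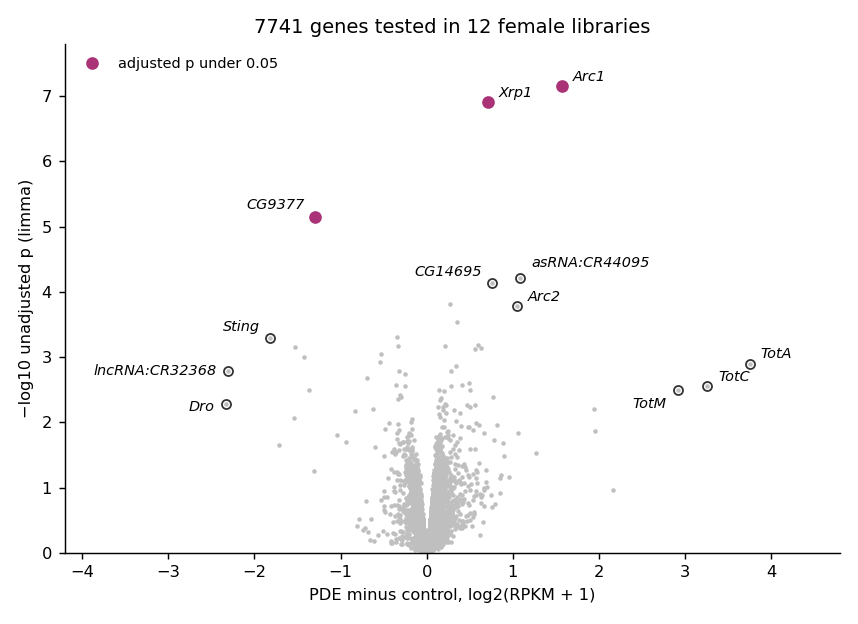
Change (PDE minus control, log2(RPKM + 1)) against −log10 of the unadjusted limma p for the 7741 genes tested, 1 point a gene. Filled points are the 3 genes with an adjusted p under 0.05; open circles mark further named genes, of which TotA has the largest positive change (3.75) and Dro the largest negative one (−2.33).

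Next by p on the higher side, among genes whose higher group mean was at least 5 RPKM, stood 3 genes that were higher in all 7 PDE libraries than in any control. CG14695 was at 3.64, 2.79, 3.43, 2.55 and 2.44 RPKM in the controls and at 4.33, 5.72 and 7.28 (lowest, median and highest) after PDE (log2 change 0.76, SE 0.132, limma adjusted p = 0.114). Arc2, which neighbours Arc1 and encodes a related capsid protein, was at 3.54, 4.54, 1.25, 3.47 and 2.85 RPKM in the controls and at 5.63, 7.34 and 9.72 after PDE (1.05, SE 0.199, limma adjusted p = 0.184). Reads of related copies such as Arc1 and Arc2 can have been counted for one another, and no source used here describes the counting. CG3008 was at 13.02, 13.1, 9.59, 11.4 and 12.3 RPKM in the controls and at 14.3, 15.5 and 16.4 after PDE (0.35, SE 0.070, limma adjusted p = 0.278). In a fit to all 25 libraries, which estimates the spread from the males as well, these 3 passed for the female change (limma adjusted p = 0.00179, 0.00523 and 0.0386). They are the only genes that this fit added.

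The other well-expressed genes with the smallest p on the higher side were Gadd45, GstE1, CG12868 and CG7084, beside TotA, which is described with its family. Gadd45, a sensor of genotoxic and other stress, was at 6.11, 3.31, 3.61, 4.48 and 3.43 RPKM in the controls and at 5.47, 6.69 and 8.71 after PDE (log2 change 0.59, SE 0.132, limma adjusted p = 0.36). It overlapped only through control 1, without which it passed (limma adjusted p = 0.0499). That was the only 1 of 28 alternatives in which Gadd45 passed. Leaving out the library nearest the other group favours such a call, here and for the genes below. CG12868 was at 17.9 to 30.6 RPKM in the controls and 31.1 to 45.9 after PDE (0.56, SE 0.128), and CG7084 at 32.9 to 46.0 and 44.8 to 57.7 (0.34, SE 0.084). CG14695 shares 54 bases with Sodh2 on the other strand, and whether the counting used strand is not given.

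On the lower side this rule named CG9377, Sting, asRNA:CR45874, CG42807, lncRNA:CR32368, CG33108, lncRNA:CR46349, CG3335, Mtkl and CG33169. CG42807 was at 1.58, 5.68, 4.52, 9.35 and 12.3 RPKM in the controls and at 0.793, 1.34 and 2.57 (lowest, median and highest) after PDE (log2 change −1.42, SE 0.334, limma adjusted p = 0.424). Only control 1 lay within the PDE range, and without it CG42807 passed (limma adjusted p = 0.0333), the only 1 of 27 alternatives in which it did. The antisense RNA asRNA:CR45874 was at 4.96 to 6.58 RPKM in the controls and 3.77 to 4.77 after PDE (−0.34, SE 0.075). Its whole length, 873 bases, lies within the ribosomal protein gene RpS9 on the other strand. If strand was not used, none of its reads can be told apart from those of RpS9. CG3335 was at 6.04 to 8.01 and 5.14 to 5.84 RPKM (−0.25, SE 0.067). CG33108 was at 11.3 to 15.0 and 8.74 to 11.996 (−0.32, SE 0.080), lncRNA:CR46349 at 4.71 to 6.57 and 3.54 to 5.27 (−0.36, SE 0.096), and CG33169 at 5.34 to 8.61 and 4.19 to 5.78 RPKM (−0.34, SE 0.098). None of these other than CG9377 passed.

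In 22 of the 7741 genes (0.284%) the groups did not overlap, with PDE above in 16 (0.207%) and below in 6 (0.0775%). Beyond those above, the higher ones were asRNA:CR44095, obe, Sarm, msk, Sfmbt, CG8176, Gyc88E, CG31663, l(2)k09022 and brun. The lower ones were tim, CG13689 and lncRNA:CR43431. Except for Sarm and tim, which their lists named, these 11 were chosen after their values were seen. The differences were mostly small against a narrow spread. For msk, which encodes an importin, the controls lay between 26.7 and 28.7 RPKM and the PDE libraries between 28.8 and 31.3 (log2 change 0.07, SE 0.037). The helicase gene obe had the smallest p of the protein-coding genes among them, at 3.43 to 4.14 and 4.64 to 5.02 RPKM (0.27, SE 0.050, limma adjusted p = 0.184). The change was 0.10 for the Polycomb group gene Sfmbt, 0.16 for CG8176, an endocytic FCHo homologue, 0.14 for the guanylyl cyclase gene Gyc88E and 0.14 for brun, a TRAPPC9 homologue. It was 0.21 for CG31663, 0.17 for l(2)k09022, −0.31 for CG13689 and −0.34 for lncRNA:CR43431. Gyc88E shares 10886 bases with Mf on the other strand, Sfmbt 1139 with asRNA:CR46256, and CG31663 1230 with CG7295.

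The antisense RNA asRNA:CR44095 had the third smallest p among the genes higher after PDE. It was at 1.02, 0.637, 0.84, 1.496 and 2.57 RPKM in the controls and at 2.78, 3.46 and 5.13 (lowest, median and highest) after PDE. Every PDE library lay above control 5, the highest control. The log2 change was 1.09 (SE 0.185, limma adjusted p = 0.114), and 0.00795 was its limma adjusted p without control 5. That was the only 1 of 27 alternatives in which asRNA:CR44095 passed. This RNA shares 542 bases with Cys on the other strand, which encodes a cysteine protease inhibitor. Its reads cannot be told apart from those of Cys there if strand was not used.

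The Turandot genes encode small secreted peptides that flies make under heat, injury, infection and oxidative stress, largely through JAK-STAT signalling. TotA, TotC and TotM had the 3 largest positive log2 changes of the genes tested, but they varied so much between libraries that none passed. TotA was at 4.40, 28.1, 6.94, 77.1 and 32.6 RPKM in controls 1 to 5 and at 32.5, 356 and 1280 (lowest, median and highest) after PDE. PDE 1 lay within the control range, and the other 6 PDE libraries, from 109 RPKM up, lay above it. The log2 change was 3.75 (SE 0.909, limma adjusted p = 0.49).

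TotC was at 0, 2.59, 0.759, 11.2 and 3.23 RPKM in the controls and at 2.46, 40.1 and 180 after PDE (log2 change 3.26, SE 0.879, limma adjusted p = 0.672). TotM was at 0.376, 5.62, 0.370, 13.5 and 5.04 RPKM in the controls and at 6.94, 21.1 and 174 after PDE (2.91, SE 0.801, limma adjusted p = 0.683). Control 4 was the highest control and PDE 2 the highest PDE library for all 3 peptides, and these 2 libraries also had photoreceptor sums of 9387 and 1973 RPKM. PDE 2 also had the highest fat body sum after PDE, at 2281 RPKM. PDE 3, with a photoreceptor sum of 1792 RPKM, was at 147 RPKM for TotA, 18.2 for TotC and 21.1 for TotM, at or below the PDE medians. Without the 3 photoreceptor-rich libraries the log2 changes were 3.96, 3.36 and 2.96. Without PDE 2 they were 3.37, 2.83 and 2.49.

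Of 20 genes in the Turandot and JAK-STAT list 10 were tested, 8 with a positive change, at a median of 0.133. Of these 0 passed and 3 had an unadjusted p under 0.05, the 3 Turandot genes. TotB was at no more than 1.18 RPKM and TotZ at no more than 0.0611, and TotE, TotF and TotX were listed at 0. The ligand genes upd1, upd2 and upd3 reached at most 0.0858, 0.229 and 0.0406 RPKM in any female library. The receptor gene dome changed by −0.005 on the log2 scale, the kinase gene hop by 0.093, the transcription factor gene Stat92E by 0.002 and the feedback inhibitor gene Socs36E by 0.039, with unadjusted limma p from 0.2035 to 0.9824. The thioester protein genes Tep2 and Tep4, also JAK-STAT targets, were at 0.248 and −0.118.

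Sting encodes the adaptor through which cyclic dinucleotides start antiviral defence. It was at 28.9, 26.8, 7.17, 29.9 and 24.95 RPKM in controls 1 to 5 and at 3.05, 3.96 and 14.9 (lowest, median and highest) after PDE. Control 3 lay with the PDE libraries and PDE 1 lay above the other 6, which were at 6.87 RPKM or less. The means were 23.5 ± 9.35 and 6.10 ± 4.21 RPKM (log2 change −1.81, SE 0.392, limma adjusted p = 0.36), and Sting shares 55 bases with Orc6 on the other strand. Without control 3 the change was −2.17 (SE 0.321) and Sting passed (limma adjusted p = 0.0348). That was the only 1 of 28 alternatives in which Sting passed. Control 3 was also the library with the lowest total, 8.88 M reads, and the highest muscle sum, and the part of these in its Sting level was not tested.

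A similar order of libraries was seen in 3 further genes. The noncoding lncRNA:CR32368 was at 163, 115.2, 29.9, 74.5 and 70.5 RPKM in the controls and at 5.76, 9.53 and 63.5 after PDE (log2 change −2.31, SE 0.579, limma adjusted p = 0.531). CG17224 was at 8.49, 6.20, 2.05, 3.61 and 4.59 RPKM in the controls and at 0.177, 0.731 and 3.30 after PDE (−1.53, SE 0.343, limma adjusted p = 0.36). Charon, an IκB-like protein of the immune response that was chosen after its values were seen, was at 21.3, 17.8, 7.02, 15.8 and 14.5 RPKM in the controls and at 7.96, 9.31 and 9.61 after PDE (−0.63, SE 0.192, limma adjusted p = 0.918). In each the lowest control was control 3. Without control 3 Charon passed with a change of −0.87 (SE 0.090, limma adjusted p = 0.00179). It passed in 2 of 28 alternatives. PDE 1 was the highest PDE library for lncRNA:CR32368 and CG17224, as it was for Sting.

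The Sting and antiviral list had 8 tested members, of which 1 had a positive change, at a median of −0.125. Of these 0 passed and 2 had an unadjusted p under 0.05, Sting and CG17224, both lower. The members were chosen with earlier results of these data known, so this count is a description only. The cyclic dinucleotide synthase gene cGlr2 was at −0.171 and the RNA interference genes Dcr-2, AGO2 and r2d2 at −0.08, −0.006 and 0.01 on the log2 scale (unadjusted limma p 0.1273, 0.25, 0.9461 and 0.8626).

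**Figure D4:**
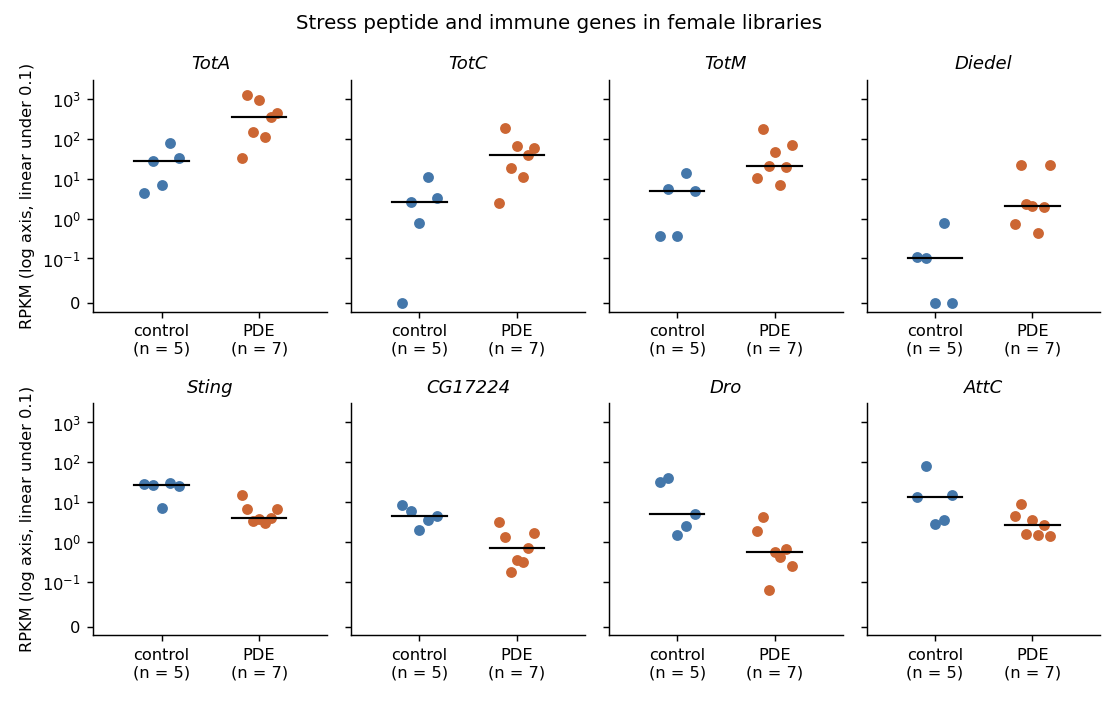
RPKM of the stress peptide genes TotA, TotC and TotM and the immune genes Diedel, Sting, CG17224, Dro and AttC in each female library, on a log axis that is linear under 0.1; points are libraries and the line is the median of a group. The groups overlap in every panel and none of these genes passed the test; the medians of TotA are 28.1 and 356, and those of Sting 26.8 and 3.96.

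Antimicrobial peptide genes, the effectors of the Toll and IMD pathways, had changes of both signs. Of 19 tested 14 had a positive change, at a median of 0.504, while the 5 with an unadjusted p under 0.05 were all lower and 0 passed. Those 5 were Mtkl, Dro, Drs, AttA and AttC, the attacins having been chosen after their values were seen. Mtkl, related to metchnikowin, was at 2.98, 9.44, 1.41, 11.1 and 11.6 RPKM in the controls and at 0.988, 1.94 and 2.21 (lowest, median and highest) after PDE (log2 change −1.36, SE 0.375, limma adjusted p = 0.683). Dro, which encodes drosocin, was at 32.2, 39.6, 1.49, 2.61 and 4.98 RPKM in the controls and at 0.0824, 0.570 and 4.21 after PDE (−2.33, SE 0.691, limma adjusted p = 0.886).

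Drs, which encodes the antifungal drosomycin, was at 5.08, 17.9, 6.69, 7.56 and 13.3 RPKM in the controls and at 3.16, 5.23 and 5.79 after PDE (log2 change −0.83, SE 0.258). AttA was at 22.9, 15.9, 4.22, 4.13 and 4.53 RPKM in the controls and at 2.17, 3.80 and 4.40 after PDE (−1.05, SE 0.375). AttC was at 13.6, 81.1, 2.81, 3.71 and 15.6 RPKM in the controls and at 1.39, 2.67 and 8.85 after PDE (−1.71, SE 0.656). The high values lay in few controls. Control 2, which had the highest fat body sum at 5598 RPKM, was also the highest control for Dro, Drs and AttC, and PDE 2, with the next highest sum, the highest PDE library for Dro and AttC. Control 1, with the lowest fat body sum of all female libraries at 98.6 RPKM, was the highest control for AttA and the next highest for Dro. Without control 2 and PDE 2 the log2 changes of Dro, Drs, AttA and AttC were −2.05, −0.63, −0.79 and −1.26, and without control 2 alone they were −1.80, −0.61, −0.82 and −1.04. None of them passed in either case.

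The Bomanins are short peptides made on Toll signalling. All 10 tested had positive changes, from 0.18 to 0.95, but the smallest unadjusted limma p was 0.0535. BomS6, chosen after its values were seen, was at 9.23, 25.4, 7.32, 12.9 and 11.8 RPKM in the controls and at 10.99, 17.2 and 73.7 after PDE (log2 change 0.95, SE 0.479, limma adjusted p = 0.999). The Bomanins are short related genes of one family, so their changes are not independent of each other.

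Of 22 tested genes of Toll and IMD signalling 14 had a positive change, at a median of 0.03, and 0 passed. PGRP-SB1, a peptidoglycan recognition protein induced by IMD signalling, was at 11.2, 38.6, 5.05, 6.90 and 12.3 RPKM in the controls and at 0.939, 3.17 and 9.13 after PDE (log2 change −1.54, SE 0.495, limma adjusted p = 0.999). Its highest control was again control 2, and its highest PDE library PDE 2. PDE 4, with a fat body sum of 575 RPKM, was close to PDE 2 at 8.28 RPKM. Diedel, a secreted modulator of IMD signalling, was at 0.110, 0.103, 0, 0.771 and 0 RPKM in the controls and at 0.446, 2.07 and 22.1 after PDE (1.95, SE 0.679, limma adjusted p = 0.999). PDE 2 and PDE 7 were both above 21 RPKM, and the other PDE libraries were at 2.29 RPKM or less. Diedel met the filter of 1 RPKM in 5 libraries only through PDE libraries, since every control was below 1 RPKM. The filter therefore favoured its positive sign, which also counts among the 14 above.

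In the JNK and damage response list, 12 of 14 tested genes had a positive change, at a median of 0.081. Xrp1 passed, and Gadd45 and Mmp1 had an unadjusted p under 0.05. Mmp1, a matrix metalloprotease and JNK target, was at 1.43, 1.14, 1.19, 1.58 and 1.86 RPKM in the controls and at 1.59, 2.40 and 3.43 after PDE (log2 change 0.49, SE 0.131, limma adjusted p = 0.672). It shares 284 bases with Pof on the other strand. The TNF ligand gene egr was at 0.21, the JNK gene bsk at 0.044, the AP-1 genes kay and Jra at 0.081 and 0.104, and the JNK phosphatase and target puc at 0.04, with unadjusted limma p from 0.0717 to 0.5445. Among 11 tested genes of p53 and apoptosis 6 had a positive change, at a median of 0.011, with 0 at an unadjusted p under 0.05.

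Of 20 tested DNA repair genes 9 had a positive change, at a median of −0.02, and 0 passed. The 2 subunits of the Ku complex, which binds DNA ends for end joining, were on the positive side: Ku80 at 2.999 to 4.93 RPKM in the controls and 4.26 to 6.24 after PDE (log2 change 0.34, SE 0.112), and Irbp, the fly Ku70, at 5.42 to 8.51 and 6.91 to 10.8 (0.30, SE 0.108). The recombination gene okr, a Rad54 homologue, was on the negative side at 1.61 to 2.47 and 1.21 to 1.88 RPKM (−0.23, SE 0.090), and shares 482 bases with Bem46. Of 12 tested axon injury genes 10 had a positive change, at a median of 0.024. Sarm, whose protein cleaves NAD in degenerating axons, was at 3.52, 3.36, 3.48, 3.20 and 3.72 RPKM in the controls and at 3.95, 4.19 and 4.40 after PDE (0.22, SE 0.048, limma adjusted p = 0.36). The groups did not overlap. Sarm shares 4152 bases with CG7565 on the other strand.

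The antioxidant enzymes and Nrf2 regulators, which the study's question on oxidative stress concerns most directly, held no member that passed. Of 24 tested 16 had a positive change, at a median of 0.033, against 56.9% and 0.013 over all genes, and 0 had an unadjusted p under 0.05. The smallest p belonged to SelR, a methionine sulfoxide reductase, at 58.9 ± 3.60 and 55.8 ± 1.64 RPKM (SD, n = 5 and 7; log2 change −0.08, SE 0.045). Next came Pgd of the pentose phosphate pathway (0.18, SE 0.122) and Keap1, the inhibitor of the fly Nrf2 (0.09, SE 0.062). Superoxide dismutase 1 (Sod1) was at 0.062, catalase (Cat) at 0.126, the thioredoxin reductase gene Trxr1 at 0.086 and the Nrf2 gene cnc at 0.053 on the log2 scale.

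Detoxifying enzymes had positive changes in 70.4% to 76.7% of each list, against 56.9% over all genes, and 0 passed. Such shares were not particular to them: in the housekeeping and metabolic lists below they ran from 43.8% (complex I) to 86.7% (proteasome). Of 27 glutathione S-transferases 19 had a positive change, at a median of 0.062. GstE1 was at 87.6, 134, 99.4, 143 and 132 RPKM in the controls and at 135, 180 and 232 after PDE, with PDE 7 alone within the control range (log2 change 0.63, SE 0.143, limma adjusted p = 0.36). It shares 127 bases with GstE10. GstT1 was at 22.4 to 27.4 and 25.4 to 30.2 RPKM (0.19, SE 0.056) and GstT2 at 13.4 to 17.2 and 15.1 to 18.8 (0.17, SE 0.071), the latter sharing 223 bases with CG12926. Of 30 cytochrome P450s 23 had a positive change, at a median of 0.091. Cyp4g15, a P450 of the nervous system, was at 23.7 to 39.5 and 34.6 to 54.0 RPKM (0.47, SE 0.141), and Cyp12c1 at 0.710 to 2.27 and 1.79 to 3.60 (0.53, SE 0.184). Of 15 UDP-glycosyltransferases 11 had a positive change, at a median of 0.112, and Ugt301D1 was at 3.19 to 6.43 and 5.56 to 9.57 RPKM (0.50, SE 0.151).

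Of 17 heat shock genes 11 had a positive change, at a median of 0.062, with DnaJ-1, an Hsp40 co-chaperone, at 16.9 to 23.6 and 21.1 to 27.3 RPKM (log2 change 0.21, SE 0.091). Of 23 genes of endoplasmic reticulum stress and the integrated stress response 16 had a positive change, at a median of 0.025, with 0 at an unadjusted p under 0.05. Among 18 genes of iron and heme 6 had a positive change, at a median of −0.01. The iron carrier gene Tsf1 was at 217 to 399 and 328 to 536 RPKM (0.49, SE 0.165). Pbgs, an early enzyme of heme synthesis, was at 6.58, 7.98, 7.19, 7.30 and 7.55 RPKM in the controls and at 5.14, 6.56 and 6.90 after PDE (−0.20, SE 0.071). Heme synthesis runs through protoporphyrin, itself a photosensitiser. Pbgs shares 352 bases with CG32100. Among 5 tested genes of metallothioneins and their regulator 3 had a positive change, at a median of 0.104, with MtnE at 0.224 to 1.12 and 0.813 to 1.85 RPKM (0.39, SE 0.141) and the regulator MTF-1 at 5.07 to 5.58 and 5.42 to 6.24 (0.10, SE 0.046). Of the controls only control 2 reached 1 RPKM for MtnE, so MtnE met the filter through PDE libraries, which favoured its positive sign. MTF-1 shares 1714 bases with CG42526. None of these passed.

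All 13 tested activity-regulated genes had a positive change, against 56.9% over all genes, at a median of 0.081. Outside Arc1 and Arc2 none had an unadjusted p under 0.05. The members were chosen with earlier results of these data known, so the count is a description only. Hr38, a nuclear receptor induced by neuronal firing that was chosen after its values were seen, was at 1.32, 0.733, 2.27, 3.46 and 5.07 RPKM in the controls and at 1.67, 2.30 and 8.41 after PDE (log2 change 0.38, SE 0.360). Its groups overlapped widely, and it shares 1099 bases with lncRNA:CR44188. The other members lay between 0.015 for Rgk1 and 0.289 for sr.

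Neuropeptide genes had mostly negative changes: 4 of 27 tested had a positive change (14.8%, against 56.9% over all genes), at a median of −0.119, and 0 passed. Dh31, a diuretic hormone that also acts in sleep and clock circuits, was at 20.02, 18.6, 18.1, 17.4 and 18.5 RPKM in the controls and at 14.5, 16.2 and 17.6 after PDE (log2 change −0.18, SE 0.059, limma adjusted p = 0.999). NPF, the fly neuropeptide F of feeding and reward, was at 19.2, 21.9, 15.4, 21.1 and 20.7 RPKM in the controls and at 11.2, 15.1 and 20.1 after PDE (−0.37, SE 0.153). Crz, which encodes corazonin, was at 267, 255, 128, 167 and 151 RPKM in the controls and at 95.8, 137 and 169 after PDE (−0.41, SE 0.192). All 3 overlapped between the groups. Many neuropeptides, though not all, are each made in few neurons of the brain.

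Of 32 tested genes of synaptic transmission 13 had a positive change, at a median of −0.019. The vesicular monoamine transporter gene Vmat was at 39.5 to 51.0 and 36.1 to 42.4 RPKM (log2 change −0.15, SE 0.066), and shares 2194 bases with CG13330. nSyb was at 283 to 304 and 271 to 296 RPKM (−0.09, SE 0.045). Of 7 neuronal markers 3 and of 6 glial markers all had a positive change, at medians of −0.043 and 0.154, with 0 at an unadjusted p under 0.05 in either list. The medians of the photoreceptor, fat body and haemocyte markers were −0.11, −0.727 and 0.159, with 4 of 13, 2 of 6 and 5 of 6 positive, and 1 muscle marker was tested, at −0.343. Of 14 clock genes 8 had a positive change, at a median of 0.039. The clock gene tim, whose protein is degraded on light through cryptochrome, was at 4.62, 5.28, 5.16, 5.36 and 4.52 RPKM in the controls and at 3.43, 3.999 and 4.36 after PDE (−0.25, SE 0.064, limma adjusted p = 0.569). No PDE library reached the lowest control. No source used here gives the hour of dissection.

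The housekeeping and metabolic lists had medians between −0.008 and 0.113, and 0 of their genes passed. Of 81 cytosolic ribosomal protein genes 60 had a positive change, at a median of 0.032, and of 30 proteasome genes 26, at a median of 0.049. Of 32 complex I subunits 14 had a positive change, at a median of −0.004, and of 22 genes of autophagy and mitophagy 10, at a median of −0.008. Of 16 genes of insulin and FOXO signalling 10 had a positive change, at a median of 0.011. In these 5 lists 0 genes had an unadjusted p under 0.05. Of 16 genes of lipid synthesis and lipid droplets 13 had a positive change, at a median of 0.113, with the fatty acid synthase gene FASN1 at 11.9 to 14.0 and 12.8 to 18.3 RPKM (log2 change 0.19, SE 0.086). Of 30 genes of glycolysis and the TCA cycle 26 had a positive change, at a median of 0.047. Ldh, lactate dehydrogenase, stood apart from them at 0.763, 1.14, 1.22, 1.06 and 1.95 RPKM in the controls and at 1.60, 2.71 and 9.76 after PDE (1.06, SE 0.374, limma adjusted p = 0.999). PDE 5 and PDE 6 were at 9.76 and 9.54 RPKM, and the other PDE libraries at 3.996 RPKM or less.

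**Figure D5:**
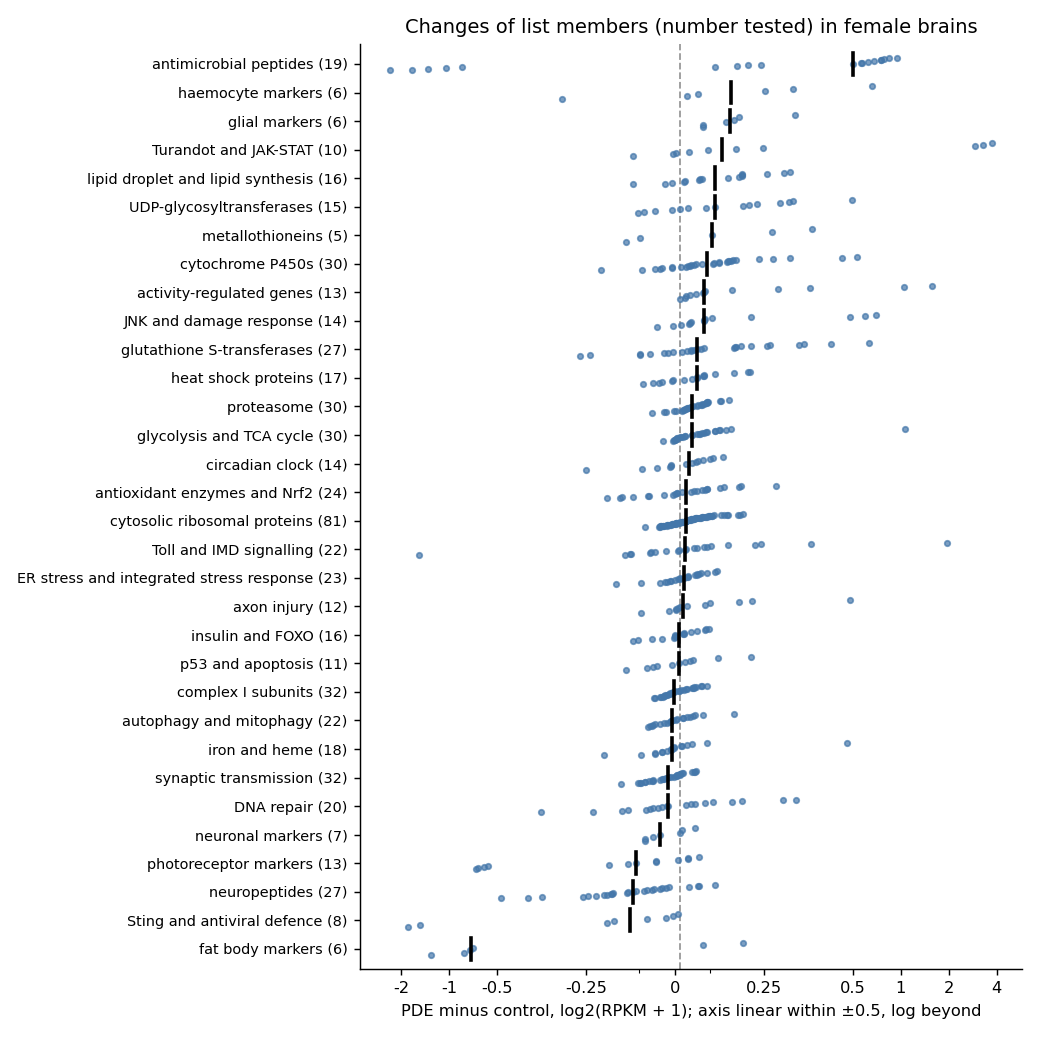
Changes (PDE minus control, log2(RPKM + 1)) of the tested members of each gene list with at least 5 of them, 1 point a gene, with the list's median as a bar; the axis is linear within 0.5 of 0 and logarithmic beyond, and the dashed line is the median of all genes tested, 0.013. The medians run from −0.727 for fat body markers to 0.504 for antimicrobial peptides, whose members lie on both sides.

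Set beside the males in the fit to all 25 libraries, the 3 called genes had the same direction in both sexes and passed in each. The male log2 changes were 1.54 for Arc1 (SE 0.219), 0.61 for Xrp1 (SE 0.072) and −0.97 for CG9377 (SE 0.155), and the female minus male differences were 0.02 (SE 0.317), 0.09 (SE 0.105) and −0.32 (SE 0.225), with unadjusted limma p of 0.938, 0.38 and 0.168. In this fit 13 genes passed in males (0.168%). The Turandot genes TotA, TotC and TotM passed in males, at 4.71, 4.89 and 4.11, where the difference from the female change was −0.96 (SE 1.05), −1.64 (SE 1.03) and −1.20 (SE 1.08), with unadjusted limma p of 0.369, 0.125 and 0.28. For the difference itself 0 genes passed limma with Benjamini-Hochberg adjustment (0.0%), and 172 had an unadjusted p under 0.05 (2.22%). Among the named genes the smallest was that of asRNA:CR44095, with male means of 2.45 RPKM (control) and 2.14 RPKM (PDE; difference 1.33, unadjusted p = 0.000681, limma adjusted p = 0.999). Of the lower genes CG3335, asRNA:CR45874 and Pbgs had male changes of 0.06, 0.06 and 0.09 (unadjusted limma p of the difference 0.00398, 0.00577 and 0.00701, adjusted p = 0.999 for each). MtnE, higher in females but at a female control mean of only 0.757 RPKM, had a male change of −0.23 (unadjusted limma p of the difference 0.00824, adjusted p = 0.999).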

How the data were processed

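The authors deposited 1 table of RPKM values for 25 libraries, with FlyBase identifiers. Per the submitters' processing notes reads were aligned with STAR to dm6; no source used here names the counter, its strand setting or the annotation. Per the labels' protocols, a Maxwell kit gave the RNA and a Takara SMART-Seq kit the libraries. Columns were assigned by name (0 could not be), and the Ensembl BDGP6.54 annotation (release 115) named 15997 of the 16060 identifiers.

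Library totals and reads were recovered from the steps of the deposited RPKM values. For 13572 of 13581 genes above 0 (99.93%) all values were whole within 0.001, and the length equalled the genomic span in 85.8% of 10739 genes with introns.

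Values were tested as log2(RPKM + 1), pseudocount 1, in the 12 female libraries for genes that reach 1 RPKM in 5 or more, with limma 3.58.1 (R 4.3.3; moderated errors, intensity trend) and Benjamini-Hochberg adjustment over all 7741 genes, at 0.05. The script was tested on simulated data. The female minus male change came from a fit to 25 libraries with 4 group coefficients. Library measures used exact permutations. Named genes are those called, the 10 with the smallest p in each direction among genes with a higher group mean of at least 5 RPKM, and up to 3 with the smallest p in each of 27 lists; 6 marker lists are given as counts and sums. The members and lists were chosen with earlier results of these data known; cyclophilins and ribosome biogenesis factors caught by name were taken out of the P450 and ribosomal protein lists after their values were seen. Alternatives changed the scale, filter, scaling, weights, variance model, covariates and libraries. The rest was done in Python 3.11.15 (scipy 1.17.1, pandas 2.3.3, numpy 2.4.6, matplotlib 3.10.9).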

Additional observations from a re-analysis of the deposited data

Results flagged for a closer look

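Libraries that stood far from the rest of their group, by Dixon's test at 95%, are listed here as values. Chance flags about 1 in 20 groups of normally distributed values, and can flag more among skewed RPKM values such as these. Control 3 had the lowest total at 8.88 M reads and PDE 3 the highest at 48.3 M. Control 4 stood apart in the photoreceptor sum (9387 RPKM), control 2 (5598) and PDE 2 (2281) in the fat body sum, PDE 5 in the haemocyte sum (140), and control 3 (18.2) and PDE 2 (6.78) in the muscle sum.

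Among the genes, CG9377 was high in control 5 (20.5 RPKM). Sting was low in control 3 (7.17) and high in PDE 1 (14.9). TotC was high in control 4 (11.2) and in PDE 2 (180), and TotM in PDE 2 (174). DnaJ-1 was high in PDE 6 (27.3), PGRP-SB1 in control 2 (38.6) and Diedel in control 4 (0.771). nSyb was high in PDE 3 (296), Sfmbt in PDE 7 (13.5) and brun in control 2 (13.4), while msk was low in control 1 (26.7) and CG13689 in PDE 3 (2.33). AttC was high in control 2 (81.1) and PDE 2 (8.85), and Hr38 in PDE 7 (8.41). No female change differed from the male one by a test adjusted over all genes.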

How the results depend on the processing

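Arc1 and Xrp1 kept their direction and passed in 27 of 28 alternatives, and CG9377 passed in 20. The count of 3 genes became 7 with array weights (4 higher, 3 lower), 6 in the fit to all 25 libraries (5 higher), and 2 with no filter on low values or with the fat body covariate, where 0 were lower (CG9377 adjusted p = 0.0567 and 0.054 by limma). With each library left out in turn it ran from 2 to 5, with 0 to 3 lower. Array weights added Charon, CG14695, obe and Mtkl. Leaving out the 3 photoreceptor-rich or the 2 fat-body-rich libraries, chosen after seeing the data, gave the same 3 genes. No alternative moved the median change of all genes beyond −0.018 to 0.032.

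The replicate numbers of the titles were not taken to pair the libraries, since not every number had a correlation over 0.1: the correlations of the deviations of controls and PDE libraries 1 to 5 were 0.31, 0.314, 0.268, 0.073 and 0.091, and only number 3 correlated best with its own. With the number as a replicate block 2 genes passed, Obp18a and CG17224, 1 of them higher; the log2 changes of Arc1, Xrp1 and CG9377 were 1.65 (SE 0.160), 0.69 (SE 0.081) and −1.29 (SE 0.192), with limma adjusted p of 0.0559, 0.108 and 0.234.

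Of 1963 values of named genes under the alternatives, the direction changed in 0. TotA, TotC and TotM kept positive changes of 2.90 to 4.25, 2.26 to 4.32 and 2.02 to 3.57, and Sting negative ones of −2.17 to −1.34. Control 3 has the fewest reads, so its low genes are the least precise.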
